A study of Mus musculus with 225 samples.

Results

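Zeugopod cells of the mouse forelimb were separated by whether they contained *Shox2* mRNA, and their transcriptomes were compared across genes. A cell was taken as *Shox2*-positive when at least 5 of its reads were assigned to *Shox2*, and as *Shox2*-negative when fewer were. Of the zeugopod cells retained in the normalized table, 73 were *Shox2*-positive and 50 were *Shox2*-negative, out of 199 retained and 225 sequenced cells in all. The groups were thus chosen by the measured reads of *Shox2*. The sequencing run NXT0142 held 31 positive and 27 negative cells, and the run NXT0143 held 42 and 23.

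All cells came from forelimbs at embryonic day 12.5 (E12.5), of embryos heterozygous for *Hoxd11::GFP* on a mixed C57Bl6CBAF1 background. In this allele a tau-GFP sequence is placed in frame in *Hoxd11*, so that GFP marks cells in which the locus was active and the controls of the comparison carry the same allele. The zeugopod is the forearm segment and the autopod the hand segment; the brightest GFP cells of each were sorted, so the cells compared were selected on GFP protein, which does not require *Hoxd11* mRNA at the time of the sort, and are not the whole forearm. Limbs of several embryos were pooled before the sort and no embryo is named for any cell. The zeugopod cells are therefore 1 pooled sample, no test was run over cells, and differences are given as values in each of the 2 sequencing runs. Which embryo or capture a run stands for is not given in the sources used here.

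*Shox2* encodes a homeodomain transcription factor of the proximal and middle limb segments, where it is needed for growth of the long bones and for normal muscle and nerve patterning. At this stage the limb mesenchyme is dividing into cartilage condensations, which depend on the transcription factor *Sox9*, and into the connective tissues that surround cartilage and muscle. Loose and muscle-associated connective tissue is known for the transcription factor *Osr1* and for matrix proteins such as type III collagen, decorin and lumican.

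*Shox2* (GRCm38, chr3:66971727-66981771, minus strand) was spread over a wide range in the zeugopod cells. The share of positive cells was 59.3% (exact binomial 95% interval 50.1 to 68.1), with 53.4% in NXT0142 and 64.6% in NXT0143. No reads of *Shox2* were found in 40 cells, 1 to 4 reads in 10 cells, 5 to 49 in 14, 50 to 999 in 21, and 1000 or more in 38. Positive cells had a median of 1095 reads of *Shox2* (lowest 5, highest 15478). The cells nearest to the threshold had 5, 6, 6, 6 and 12 reads on the positive side and 4, 3, 3, 3 and 2 on the negative side. These values made the groups and are given as a description. The intervals of shares cover counting error only.

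Autopod cells served as a background measured in the same way. None of 76 reached 5 reads of *Shox2*, which allows a share of up to 4.74%, and 1 autopod cell had any read of it. Their median depth was 2830020 reads on genes, beside 3233740 in the zeugopod cells. Of the 17 autopod cells sequenced together with zeugopod cells in NXT0143, all had 0 reads of *Shox2*.

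**Figure D1:**
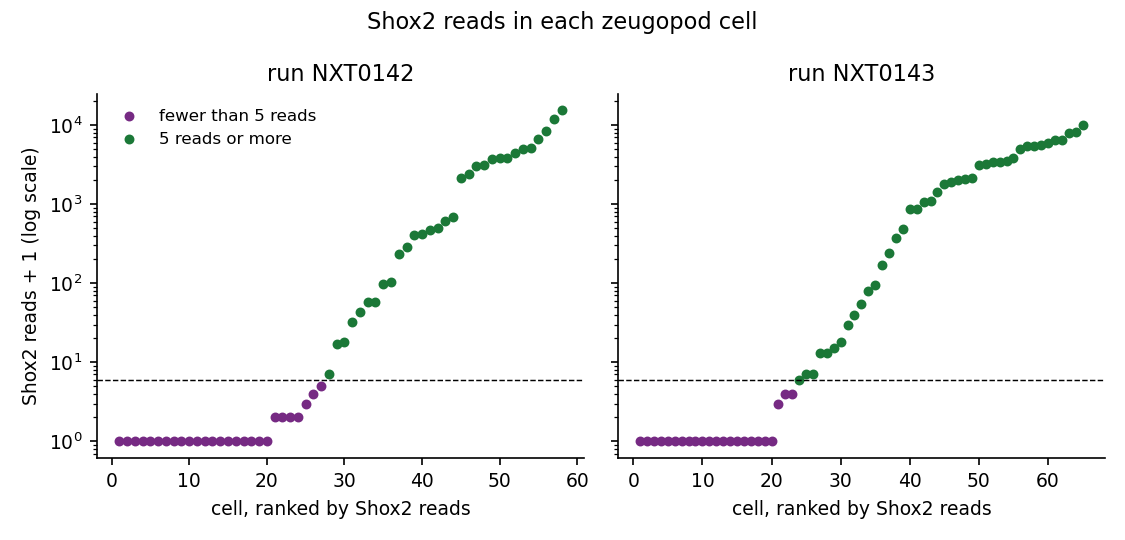
Reads of *Shox2* plus 1 (vertical, log scale) in each of 58 zeugopod cells of run NXT0142 and 65 of run NXT0143, ranked by their reads (horizontal); the dashed line stands at 5 reads. Both runs hold a block of cells at 0 reads and a continuous rise from there, to 15478 reads in the highest cell.

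Depth and the number of genes detected were both somewhat higher in the positive cells. Positive cells had a median of 3253910 reads on genes and negative cells 3061650. Genes with at least 1 read numbered 4069 and 3963.5 at the median, with 4342 against 4187 in NXT0142 and 3920.5 against 3616 in NXT0143. After each cell was thinned to 500000 reads, which left out 1 positive and 3 negative cells, the medians were 3149 and 3002. The size factor by which the authors divided the counts of a cell was lower in positive cells (median 1.02) than in negative cells (1.34). Counts scaled to a library of 1000000 reads (CPM), which do not use this factor, are therefore given beside some of the results.

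The identity of the cells was examined with marker lists. None of the cells of either group had 3 markers of skeletal muscle, endothelium, epithelium, macrophages or Schwann cells at 5 reads or more. This allows shares of up to 4.93% of positive and 7.11% of negative cells. The summed markers of muscle reached at most 7.54 CPM in a positive and 5.55 CPM in a negative cell, and those of blood at most 0.25 and 0 CPM. Summed markers of epithelium reached 852 CPM in the highest positive and 1741 CPM in the highest negative cell, with a median of 0 in both groups. The muscle regulators *Myod1* and *Myog* were at 0 reads in every cell of both groups. The autopod gene *Hoxd13* reached 5 reads in 0 of 73 positive and 1 of 50 negative cells, against 65 of 76 autopod cells. At least 3 of the 14 autopod list genes were, however, held by 64 positive, 46 negative and all 76 autopod cells. At 3 markers this list thus did not set the tissues apart. Its summed markers had medians of 3218, 2964 and 17568 CPM in these groups. No doublet caller was run.

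The comparison took in 5335 genes besides *Shox2*, those that reached 5 reads in 20% or more of the zeugopod cells. The measure was the difference between the groups in the mean of log2(normalized value + 1), positive minus negative. A gene was counted as higher or lower when this difference reached 2 over all cells and 1 in the same direction in each run. By this rule 36 genes (0.675%) were higher and 8 (0.15%) were lower in the *Shox2*-positive cells. The groups were made from the same cells, so these counts describe them and no p-value belongs to them. At a difference of 1 over all cells, with no condition on the runs, 10.2% of the genes were higher and 2.21% lower. The median difference over all 5335 genes was 0.23, with 0.19 in NXT0142 and 0.36 in NXT0143.

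Counts of this kind moved with the treatment of depth. When differences were taken within cells below and above the median of genes detected in each run, the median over all genes was 0.056, and 13 genes were higher and 6 lower. All 13 belonged to the 36. With log2(CPM + 1) in place of the normalized values, 36 genes were higher, 29 of them shared, and 22 were lower, including all 8. Over all 5335 genes the differences of the 2 runs correlated weakly (Pearson's r = 0.18 across genes, which are not independent replicates). The part of genes detected and of the size factor in the differences was not tested.

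**Figure D2:**
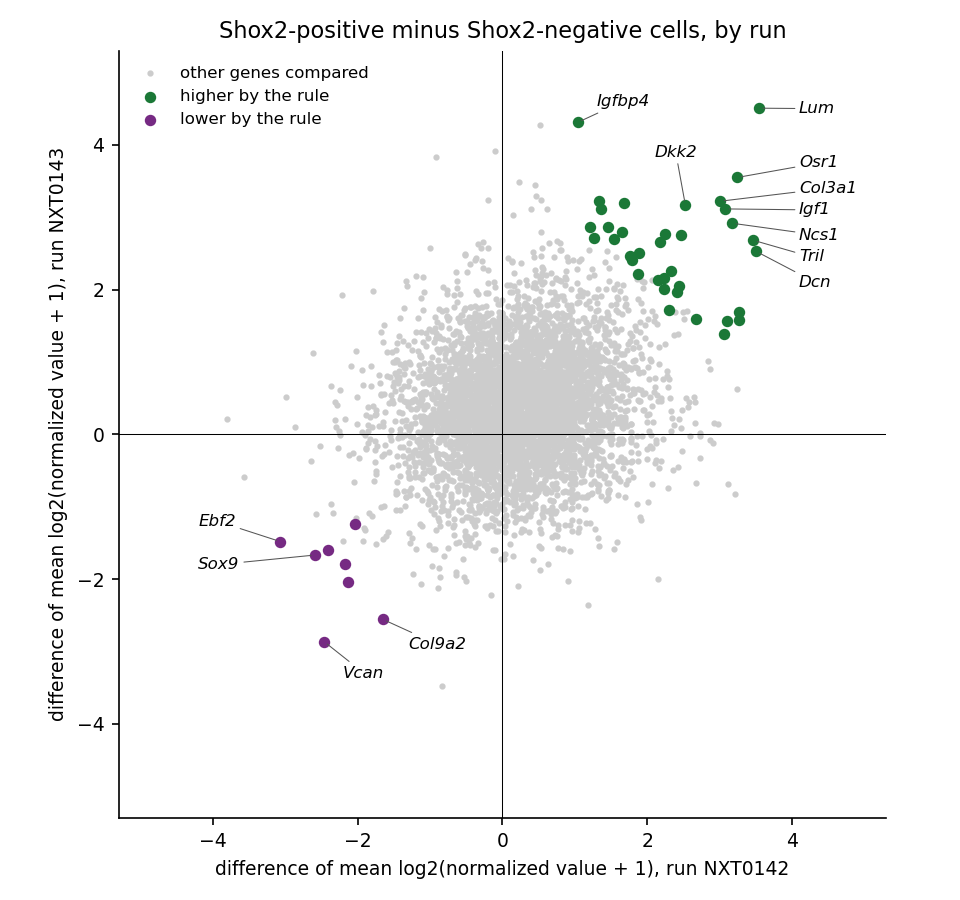
Difference of mean log2(normalized value + 1), *Shox2*-positive minus *Shox2*-negative cells, in run NXT0142 (horizontal) and run NXT0143 (vertical) for 5335 genes; green points are the 36 genes higher and purple points the 8 genes lower by the rule. *Lum*, *Osr1*, *Col3a1*, *Dcn*, *Igf1*, *Tril*, *Ncs1* and *Dkk2* lie above 2.5 in both runs, while the cloud of grey points is centred near 0 with little alignment between the runs.

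The 4 genes with the largest positive differences were *Lum*, *Osr1*, *Col3a1* and *Dcn*. *Lum*, which encodes the collagen-binding proteoglycan lumican, stood first. Its normalized value, in reads per kb of gene after scaling by the size factor, had a median of 35.1 in positive cells (highest 17090) and 0.481, the value of a cell with 0 reads, in negative cells (highest 1832). It reached 5 reads in 38 of 73 positive cells (52.1%, interval 40.04 to 63.90) and in 6 of 50 negative cells (12%, 4.53 to 24.3). The difference was 4.20 on the log2 scale, 3.54 in NXT0142 and 4.51 in NXT0143. *Lum* was thus absent from about as many positive cells as held it, and the groups overlapped.

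*Osr1*, a zinc finger transcription factor of muscle connective tissue progenitors, was found in 41 positive cells (56.2%, 44.1 to 67.8) and 6 negative cells (12%, 4.53 to 24.3). Its median normalized value was 18.9 in positive cells and at the 0-read value of 0.497 in negative cells, with highest values of 4369 and 1540. The difference was 3.43, and 3.25 and 3.55 in the runs. Like *Lum*, it was high in part of the positive cells and in few of the negative ones.

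*Col3a1*, the type III collagen of loose connective tissue, differed by level rather than by presence alone. It reached 5 reads in 69 positive cells (94.5%) and 33 negative cells (66%), at medians of 262 and 3.65 in normalized value. Among the cells that held it, the medians were 298 and 51.5. The difference was 3.13 on the log2 scale, 3.01 in NXT0142 and 3.22 in NXT0143.

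*Dcn*, which encodes the proteoglycan decorin, was present in 32 positive and 4 negative cells (43.8% and 8%), with a difference of 3.08 (3.51 and 2.53 in the runs). In the cells that held it the normalized value was not higher in the positive group, at medians of 1214 and 1839. For *Dcn* the groups thus differed in how many cells held the mRNA. *Dcn* (chr10:97479609-97518143), *Lum* (chr10:97565128-97572703) and *Kera* (chr10:97606879-97613692) lie in that order on the plus strand of chromosome 10 and encode related small leucine-rich proteoglycans. *Kera*, encoding keratocan, was below the filter, with 14 positive cells against 1 negative cell. All 14 were among the 38 cells with 1000 or more reads of *Shox2*. *Bgn*, a gene of the same family that was compared, differed by −0.10 (−0.44 and 0.14 in the runs).

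Secreted signals and their modulators were among the leading genes. *Igf1*, the growth factor, was found in 37 positive cells (50.7%) and 9 negative cells (18%), a difference of 3.01 (3.08 and 3.11). *Dkk2*, which encodes a secreted modulator of Wnt signalling, was found in 30 and 3 cells (41.1% and 6%), a difference of 2.80 (2.53 and 3.17). In NXT0143 none of 23 negative cells held *Dkk2*, against 17 of 42 positive cells. *Igfbp4*, which encodes an IGF-binding protein, had a difference of 2.73 that was unequal in the runs, at 1.04 and 4.31.

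The T-box gene *Tbx3*, a patterning factor of the limb, was found in few negative cells. It reached 5 reads in 27 of 73 positive cells (37.0%, 25.97 to 49.09) and 1 of 50 negative cells (2%, 0.0506 to 10.6), a difference of 2.33 (1.66 and 2.80). *Tril*, encoding a membrane protein of Toll-like receptor signalling, was found in 39 and 6 cells, a difference of 2.99 (3.47 and 2.68). *Ncs1*, encoding a neuronal calcium sensor, was found in 49 and 16 cells, a difference of 3.06 (3.18 and 2.92). *Nkiras2*, encoding an inhibitor of NF-kappa-B signalling, was found in 35 and 8 cells, a difference of 2.48 (2.24 and 2.76).

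*Crabp1*, encoding a retinoic acid-binding protein, was also among the 36. It was found in 45 positive and 18 negative cells, a difference of 2.32 (2.18 and 2.66). Its relative *Crabp2* was higher by 1.15, below the threshold. Genes of the cytoskeleton and the cell surface in the set were *Vim* (2.09), *Tpm1* (2.17), *Cd81* (2.35), *Sema5a* (2.06), *Pcdh18* (2.04), *Tgfbr3* (2.02) and *S1pr3* (2.00). The remaining genes included general cell components such as the proteasome subunit *Psmc5* (2.13), the complex I subunit *Ndufs8* (2.39) and the mitochondrial ribosomal genes *Mrps11* (2.27) and *Mrpl36* (2.06). *Psmc5* passed the rule under 4 of 14 alternatives and was at 0.16 without cells that had 3 chondrogenic markers.

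The genes lower in *Shox2*-positive cells included several of the cartilage lineage. *Sox9*, the transcription factor required for cartilage condensation, had a median normalized value of 36.7 in positive cells (0.242 to 4653) and 463 in negative cells (0.242 to 6558). It reached 5 reads in 42 positive cells (57.5%, 45.41 to 69.03) and 37 negative cells (74%, 59.7 to 85.4). The difference was −2.11, with −2.58 in NXT0142 and −1.67 in NXT0143. The ranges overlapped, and most of the positive cells held *Sox9*.

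*Col9a2*, a chain of the cartilage collagen type IX, was found in 26 positive and 29 negative cells (35.6% and 58%), a difference of −2.01 (−1.65 and −2.56). *Wwp2*, the host gene of a cartilage microRNA and encoding a ubiquitin ligase, was found in 26 and 30 cells, a difference of −2.05 (−2.13 and −2.04). The largest negative difference was that of *Vcan*, which encodes the proteoglycan versican of condensing mesenchyme, at −2.72 (−2.46 and −2.86). *Vcan* was found in 49 positive cells (67.1%) and 45 negative cells (90%), with median normalized values of 18.4 and 225. With log2(CPM + 1) its difference was −3.59. It is the member of the connective tissue matrix list that went the other way.

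*Ebf2*, a helix-loop-helix transcription factor of mesenchymal progenitors, differed by −2.43 (−3.07 and −1.48) and was found in 26 positive cells (35.6%, 24.7 to 47.7) and 34 negative cells (68%, 53.3 to 80.5). Its relatives *Ebf1* and *Ebf3* differed by −2.25 and −1.63, but mostly in NXT0142 (−3.57 and −2.64, against −0.59 and −0.37 in NXT0143). The other genes of the set were the retinaldehyde reductase gene *Dhrs3* (−2.06), *Dazap2* (−2.04) and *Hoxa11os* (−2.05). *Hoxa11os* overlaps part of *Hoxa11* on the opposite strand of chromosome 6. The library kit does not mark strand, so reads of these transcripts cannot be told apart where they overlap. *Hoxa11* itself differed by −0.52, at 19 of 73 and 15 of 50 cells.

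**Figure D3:**
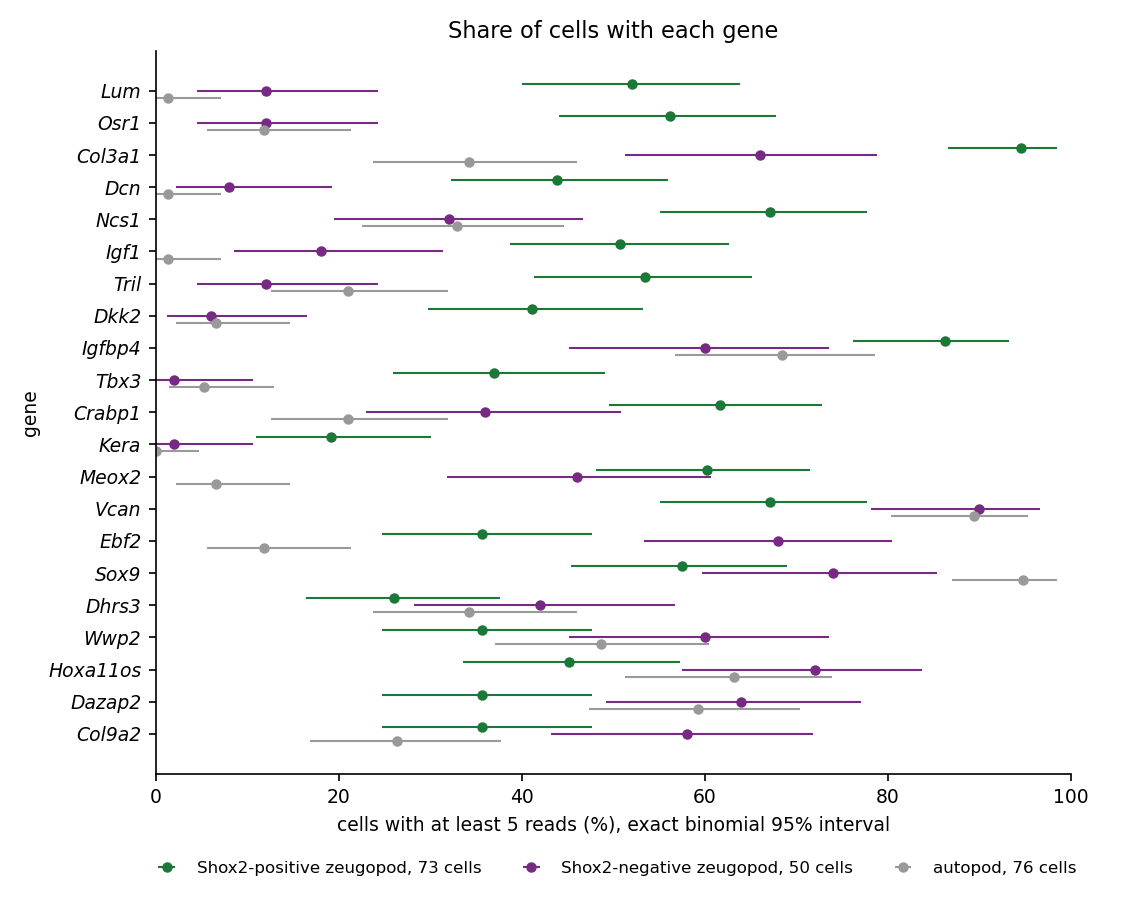
Share of cells with at least 5 reads (horizontal, percent, with exact binomial 95% intervals for counting error) for 21 genes (vertical) in 73 *Shox2*-positive zeugopod, 50 *Shox2*-negative zeugopod and 76 autopod cells. *Lum*, *Dcn* and *Igf1* were each found in 1 autopod cell, and *Sox9* was found in 72 of 76 autopod cells, more often than in either zeugopod group.

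Autopod cells were set beside the zeugopod groups for the same genes. *Lum*, *Dcn* and *Igf1* reached 5 reads in 1 of 76 autopod cells each (1.32%), *Dkk2* in 5, *Osr1* in 9 and *Col3a1* in 26 (34.2%). The *Shox2*-negative zeugopod cells lay between the autopod and the positive cells in these shares for *Lum*, *Dcn*, *Igf1* and *Col3a1*, and close to the autopod cells for *Osr1* and *Dkk2*. *Sox9* and *Vcan* were found in 94.7% and 89.5% of autopod cells. *Ebf2* went another way, with 11.8% of autopod cells, under both zeugopod groups. Most autopod cells (59 of 76) were sequenced in a run with no zeugopod cells.

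Of the 14 connective tissue matrix genes compared, 3 were higher and 1 lower by the rule, and 13 were higher over all cells and in both runs, a pattern found in 44.2% of all 5335 genes. Their median difference was 1.0, beside 0.23 over all genes. Members below the threshold included the type VI collagen genes *Col6a1* (1.36; 28 positive and 7 negative cells) and *Col6a2* (1.28; 27 and 7), the fibrillin gene *Fbn1* (1.10; 34 and 10) and *Ogn* (1.81; 26 and 7), encoding osteoglycin. *Ogn* was higher mainly in NXT0143, at 2.65 against 0.64. *Col1a1*, the type I collagen of connective tissue and bone, was found in nearly every cell of both groups and was higher by 1.74 (1.87 in both runs).

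Of 5 muscle connective tissue genes compared, *Osr1* and *Tbx3* were higher by the rule, beside 0.675% of all genes compared, and the median was 0.62, beside 0.23 over all genes. Of the 5 genes 4 were higher over all cells and in both runs, a pattern found in 44.2% of all genes. *Tcf4* (0.60) and *Tbx5* (0.62) were close to this median, and *Pdgfra* (0.56) had opposite signs in the runs (−0.29 and 1.52). *Tcf4* here is the gene on chromosome 18. It is not *Tcf7l2* on chromosome 19, which has also been called Tcf4 and was not in this list. All counts for this list include the chromosome 18 gene. By cells, 62 of 73 positive cells (84.9%, 74.6 to 92.2) and 34 of 50 negative cells (68%, 53.3 to 80.5) had at least 3 of the 6 genes.

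Of 6 chondrogenic genes compared, *Sox9* was lower by the rule and none was higher. The median was −1.15, and 5 were lower over all cells and in both runs, a pattern found in 13.5% of all genes. The matrix genes *Col2a1* and *Col11a1*, encoding collagens of cartilage, differed by −1.03 (−0.94 and −1.11) and −1.27 (−1.67 and −1.01), and *Sox6*, a cofactor of *Sox9*, by −1.36 (−0.86 and −1.97). *Sox5* had opposite signs in the runs (0.37 and −1.35). With log2(CPM + 1) the list's median was −1.58, and *Col11a1* and *Col2a1* differed by −2.14 and −1.28. Cells with at least 3 of the 10 chondrogenic markers made up 35 of 73 positive cells (47.9%, 36.10 to 59.96) and 37 of 50 negative cells (74%, 59.7 to 85.4). The markers summed to a median of 788 CPM in positive cells (range 0 to 21975.5) and 2525 CPM in negative cells (2.64 to 21669.7).

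Cells with 3 chondrogenic markers were then left out, which kept 38 positive and 13 negative cells. By the rule 150 genes (2.81%) were then higher and 64 (1.2%) lower, and 25 of the 36 higher genes kept their call, among them *Lum*, *Osr1*, *Col3a1* and *Dcn*. All 36 were still above 0, 33 of them by at least 1. They had been chosen in a set that includes these cells, so keeping their sign is in part fixed by the choice. Among the connective tissue matrix genes below the threshold, *Col5a1* went from 0.85 to −0.30 and *Col5a2* from 0.50 to −0.23, and *Ogn* was at 0.09. Of the 8 lower genes, *Dhrs3* and *Wwp2* turned to 0.25 and 0.042, and *Sox9* and *Col9a2* were at −0.30 and −0.09. *Ebf2* and *Vcan* stayed lower, at −5.20 and −1.52.

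**Figure D4:**
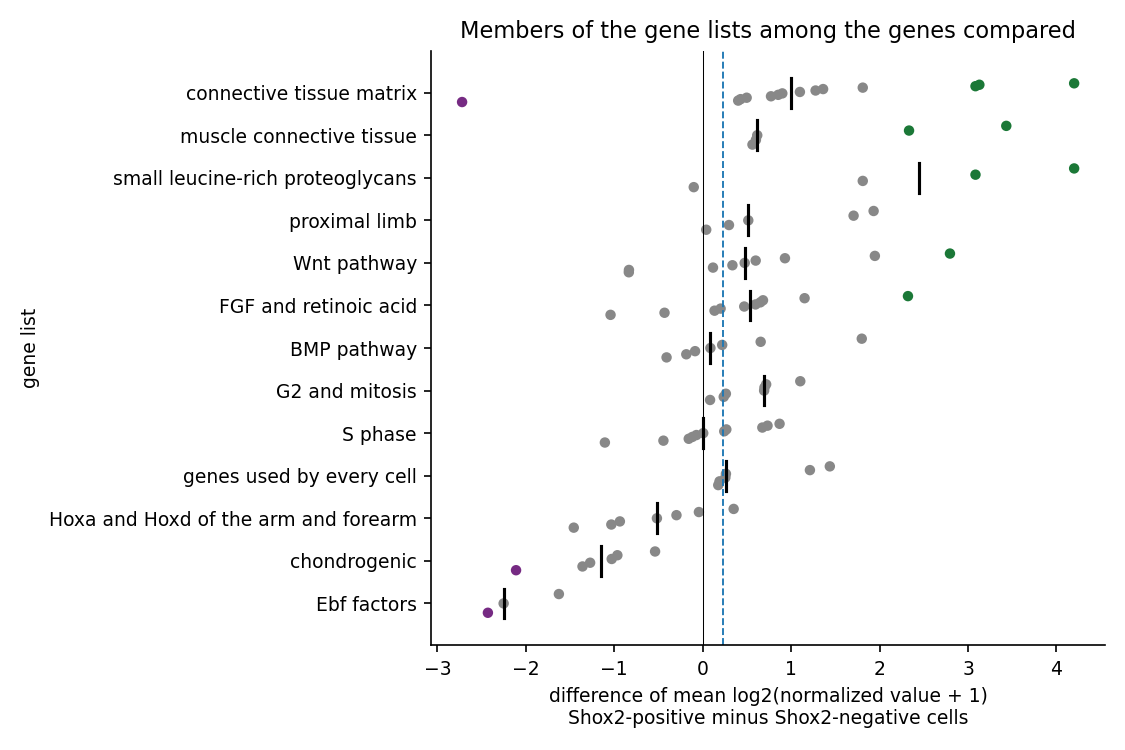
Difference of mean log2(normalized value + 1), *Shox2*-positive minus *Shox2*-negative cells (horizontal), for the members of 13 gene lists (vertical) that were among the 5335 genes compared; black bars are list medians, the dashed line is the median of all genes at 0.23, and green and purple points are genes higher or lower by the rule. Connective tissue matrix genes lie to the right except *Vcan*, and chondrogenic and *Ebf* genes lie to the left of 0.

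Genes of the limb segments differed less. None of 7 *Hoxa* and *Hoxd* genes of the arm and forearm passed the rule; their median was −0.52. *Hoxd8* (−1.46; −2.07 and −0.26) and *Hoxd11* (−1.03; −0.42 and −1.19), the gene on whose locus the cells were sorted, were the lowest, and *Hoxa10* was at 0.35. None of 5 genes of the proximal limb passed the rule. *Tbx15*, a T-box gene of the limb skeleton and dermis, was higher by 1.71 (1.69 and 1.78), in 36 positive and 17 negative cells. It did not rise steadily with the reads of *Shox2*. Its mean log2(normalized value + 1) was 2.22 at 0 reads, 1.88 at 1 to 4 and 5.43 at 5 to 49. At 50 to 999 reads it was 4.42, and at 1000 or more 2.98. *Meox2*, a homeobox gene of limb muscle patterning, was higher by 1.93, but by 0.61 in NXT0142 and 3.11 in NXT0143. In NXT0142 it was found in 16 of 31 positive and 15 of 27 negative cells, and in NXT0143 in 28 of 42 and 8 of 23.

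Among signalling genes, *Bmp4*, a bone morphogenetic protein, was found in 22 positive and 4 negative cells and was higher by 1.80 (1.67 and 2.06), while the median of 7 BMP pathway genes was 0.09. Of 9 Wnt pathway genes *Dkk2* passed the rule, beside 0.675% of all genes, and the list's median was 0.48, beside 0.23 over all genes. *Tcf7l2*, a transcription factor acting downstream of Wnt, was higher by 1.95 (2.37 and 1.37). *Gli3*, the hedgehog pathway repressor, was lower by −1.74 (−1.89 and −1.32), in 46 positive and 40 negative cells. *Dusp6*, a target of FGF signalling, differed by −1.04, while the median of the 10 FGF and retinoic acid genes compared was 0.53. *Id3*, a target of BMP signalling, was higher by 1.24 (1.34 and 0.92). It was the only 1 above 1 of the 7 genes of the autopod marker list that were compared, and their median was −0.17.

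No cell cycle gene passed the rule. The median over 11 S phase genes was 0.01, below the 0.23 of all genes. That over 7 genes of G2 and mitosis was 0.69 (0.38 in NXT0142 and 0.99 in NXT0143), and 5 of the 7 were higher over all cells and in both runs, a pattern found in 44.2% of all genes. Cells with at least 3 of 12 G2 and mitosis genes made up 31.5% of positive cells (interval 21.1 to 43.4) and 24% of negative cells (13.1 to 38.2). The counts were 10 of 31 against 9 of 27 in NXT0142, and 13 of 42 against 3 of 23 in NXT0143. These genes summed to a median of 5.05 CPM in positive and 10.9 CPM in negative cells. The 6 genes used by every cell that were compared had a median of 0.26, near that of all genes.

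Of 7 tendon genes only 2 were compared, and they differed in direction. *Scx*, the transcription factor of tendon progenitors, was found in 20 positive cells and 15 negative cells and differed by −0.66 (−1.23 and −0.04). *Tnc*, which encodes the matrix protein tenascin C, was higher by 0.71 (0.27 and 1.11). *Kera*, also on this list but below the filter, was found in 14 positive cells and 1 negative cell. At least 2 tendon genes were held by 28 of 73 positive cells (38.4%, 27.2 to 50.5) and 11 of 50 negative cells (22%, 11.53 to 35.96). The counts were 14 of 31 against 7 of 27 in NXT0142, and 14 of 42 against 4 of 23 in NXT0143.

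The amount of *Shox2* mRNA was followed through the 5 classes of reads. The mean level of *Lum*, as log2(normalized value + 1), was 1.61, 0.82, 1.86, 3.84 and 8.06 from cells with 0 reads to cells with 1000 or more. *Osr1* had means of 1.47, 2.04, 3.45, 3.25 and 6.57. Both genes were highest in the 38 cells with the most *Shox2*, where *Lum* was held by 28 and *Osr1* by 27. *Sox9* had means of 6.51, 9.15, 5.36, 6.52 and 3.89, and *Vcan* of 6.68, 8.22, 5.55, 4.23 and 3.81. For these, cells with 1 to 4 reads of *Shox2* were at or above cells with none. The median number of genes detected in the classes lay between 3889.5 and 4146.

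*Shox2* and *Sox9* did not exclude each other. Both were found in 42 of the zeugopod cells (34.1%), *Shox2* without *Sox9* in 31 (25.2%), *Sox9* without *Shox2* in 37 (30.1%) and neither in 13 (10.6%). The same classes held 16, 15, 20 and 7 cells in NXT0142 and 26, 16, 17 and 6 in NXT0143. Cells with both had a median of 3900.5 genes detected, beside 4210 in cells with *Shox2* alone and 3937 in cells with *Sox9* alone.

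*Lum*, *Osr1*, *Dcn*, *Col3a1* and *Dkk2*, all higher by the rule, were most frequent in the *Shox2*-positive cells that lacked *Sox9*. *Osr1* was found in 26 of these 31 cells (83.9%), in 15 of 42 cells with both (35.7%), in 3 of 37 cells with *Sox9* alone (8.11%) and in 3 of 13 with neither (23.1%). *Dkk2* was found in 23, 7, 0 and 3 cells of the same classes. *Col9a2* had the reverse order, with 4 of 31, 22 of 42 and 28 of 37 cells, and 1 of 13 cells with neither. So did *Vcan* of the connective tissue matrix list, with 16 of 31, 33 of 42 and 37 of 37 cells, and 8 of 13 with neither. *Col2a1*, by contrast, was found in 28 of 31, 37 of 42, 36 of 37 and 11 of 13 cells. *Col3a1* was held by 31 of 31, 38 of 42, 22 of 37 and 11 of 13 cells. Its mean log2(normalized value + 1) was 8.35, 5.68, 2.82 and 6.14, so cells with neither gene were above cells with both. *Meox2* was held by 23 of 31, 21 of 42, 13 of 37 and 10 of 13 cells.

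How far these genes occurred in the same cells was described with *Lum*, *Osr1*, *Dcn*, *Igf1*, *Tril*, *Dkk2* and *Tbx3*, which were chosen after their values were seen. All 7 are among the 36 genes higher by the rule, so more of them in positive than in negative cells follows from the choice. *Col3a1* and *Ncs1*, also higher by the rule, were held by more negative cells than any of the 7 and were left out. At least 3 of the 7 were held by 41 of 73 positive cells (56.2%, 44.1 to 67.8) and 3 of 50 negative cells (6%, 1.25 to 16.5). The counts were 17 of 31 against 2 of 27 in NXT0142, and 24 of 42 against 1 of 23 in NXT0143. None of the 7 was held by 11 positive cells (15.1%) and 26 negative cells (52%). Positive cells thus ranged from cells with most of these genes to cells with none. Genes detected moved with this number, at medians of 3555, 3922 and 4308 in positive cells that held 0, 1 to 2 and 3 or more of the 7, and 3895, 4000 and 5240 in negative cells. Its part in the counts was not tested.

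Split by *Sox9*, at least 3 of the 7 were held by 26 of 31 cells with *Shox2* alone (83.9%, 66.3 to 94.5) and by 15 of 42 cells with both (35.7%, 21.55 to 51.97). Of the 37 cells with *Sox9* alone none did, which allows a share of up to 9.49%. These cells are *Shox2*-negative, so the choice of the 7 genes bears on this count too. Among cells with 1000 or more reads of *Shox2* the count was 29 of 38 (76.3%, 59.8 to 88.6), and among those with 5 to 49 reads 4 of 14 (28.6%, 8.39 to 58.1).

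**Figure D5:**
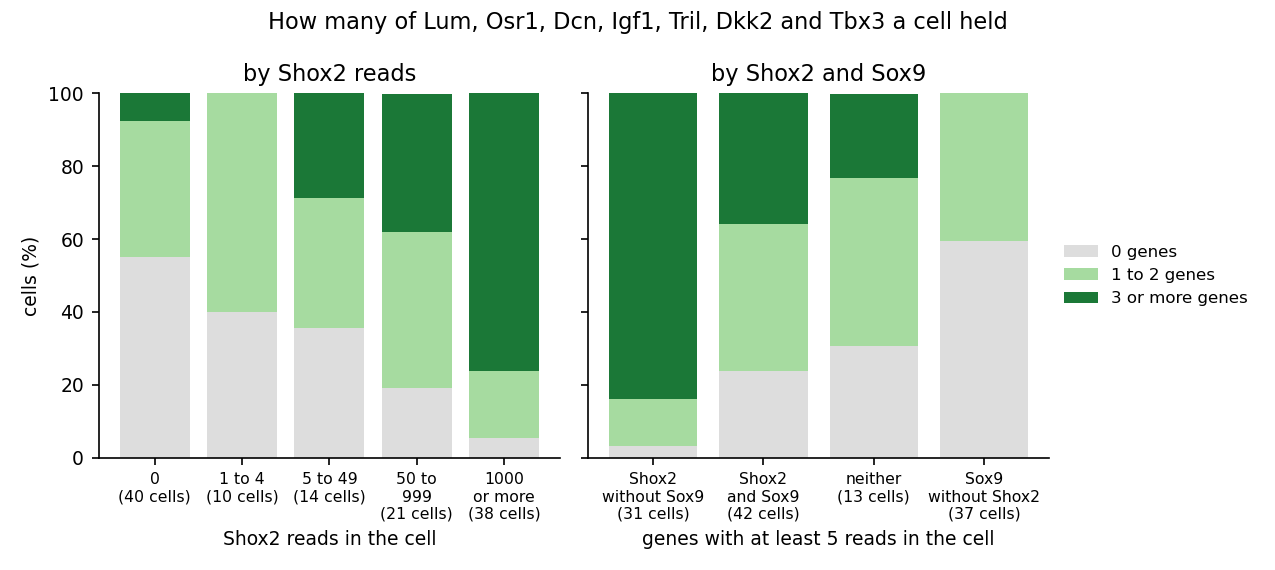
Percent of zeugopod cells (vertical) that held 0, 1 to 2, or 3 or more of the 7 genes *Lum*, *Osr1*, *Dcn*, *Igf1*, *Tril*, *Dkk2* and *Tbx3* at 5 reads or more, by reads of *Shox2* (left) and by presence of *Shox2* and *Sox9* (right). Cells with 3 or more of the genes made up 76.3% of cells with the most *Shox2* reads and 83.9% of cells with *Shox2* but not *Sox9*. All 7 genes were chosen from those higher in *Shox2*-positive cells by the rule.

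Over the whole transcriptome the groups were largely intermixed. Among the 15 nearest neighbours of a cell, in 10 principal components of the 1000 most variable genes without *Shox2*, 57.5% belonged to its own group, where complete mixing would give 51.4%. Within NXT0142 the values were 53.6% and 49.4%, and within NXT0143 56.2% and 53.6%. In NXT0143 the positive cells had fewer positive neighbours (62.1%) than mixing would give (64.1%), and the negative cells had more negative ones (45.5% against 34.4%). Without the 44 genes of the rule the share was 55.9%.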

How the data were processed

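Single cells were captured on a Fluidigm C1 chip, amplified with the SMARTer kit and tagmented with Nextera XT. The authors mapped reads with Bowtie2 to GRCm38 (mm10) and deposited raw counts of reads per gene, without molecular identifiers. They also deposited normalized values, a signal per gene, of 10948 genes. Counts were divided by spike-in size factors (scran 1.0.4), 1 was added, and the result was divided by gene length in kb. The size factors were recovered here from the normalized values. With them the counts matched 100% of values within 1 unit or 1%, over 10934 genes. This match checks the form of the scaling and cannot show where the factors came from. The factors followed the summed ERCC reads weakly, with Spearman's rho of 0.09 in NXT0142 and 0.15 in NXT0143. Genes with near-identical copies may be under-counted, since reads were mapped uniquely. Retained cells had 186271 to 6801278 reads on genes in the zeugopod. ERCC rows were not used for any other purpose.

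Groups were made at 5 reads of *Shox2*. Differences of mean log2(value + 1), CPM, shares of cells with at least 5 reads (Clopper-Pearson intervals), thinning (seed 42) and neighbours were computed in Python 3.11.15 with numpy 2.4.6 and pandas 2.3.3. No p-value was computed, since the cells form 1 pooled sample. No 2 retained cells had identical counts. Named genes were the 10 with the largest difference in each direction, every list gene past the rule, *Shox2*, *Meox2*, *Hoxa11* and members of the lists described. The cells, the groups and the gene lists were chosen with earlier results of these data known; the lists of *Ebf* factors, small leucine-rich proteoglycans and further cartilage genes were added after seeing the data. Symbols and positions follow GENCODE M21. The difference and the rule were run on simulated counts, on log2(CPM + 1) and with planted differences larger than those reported here. That run does not test the rule at the size of the reported differences. Alternatives covered scaling, pseudocount, the *Shox2* threshold, the filter, genes detected, thinning, chondrogenic cells and single runs.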

Additional observations from a re-analysis of the deposited data

Results flagged for a closer look

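Of the 6 zeugopod cells that are not in the normalized table, 1 cell of NXT0143 had 20 reads of *Shox2* among 143483 reads on genes, above the 3 reads that a count of 0 allows; the 5 others had 0 or 1. *Egr1*, an immediate early gene, was higher in *Shox2*-positive cells in NXT0142 (1.58) and lower in NXT0143 (−1.48); the difference between the runs was not tested.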

How the results depend on the processing

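No paired analysis was possible because the numbers in the cell names only name cells and no test was run. The higher genes, 0.675% of those compared, became 1.65% with a pseudocount of 0.1, 0.094% with 10, 1.05% without cells of 1 to 49 *Shox2* reads, 0.244% within strata of genes detected, 2.81% without cells of 3 chondrogenic markers, 1.25% with 5 reads in 50% of cells, 2.01% in NXT0142 alone, 2.62% in NXT0143 alone, and 8.47% with thresholds of 1 and 0.5. The lower genes, 0.15%, became 0.412% with CPM, 0.375% and 0% with these pseudocounts, 0.056% with *Shox2*-positive at 1 read, 0.412% after thinning, 1.2% without cells of 3 chondrogenic markers, 0.197% (3 genes) with the stricter filter, 0.694% in NXT0142 alone and 1.63% with the lower thresholds. *Dhrs3* (0.25) and *Wwp2* (0.042) reversed without cells of 3 chondrogenic markers. The median over all genes moved from 0.23 to 0.056 within strata of genes detected, 0.11 with no filter, 0.36 with the stricter filter and 0.36 in NXT0143 alone. The neighbour share above mixing, 6.10 points, was 9.14 with 5 neighbours, 8.38 with CPM, 4.20 and 2.65 within the runs, and 4.53 without the genes of the rule. The median difference in share of cells over the higher genes, 27.5 points, was 22.9 at 1 read; over the lower genes, −23.6 points, it was −21.3 at 1 read and −24.6 after thinning. *Lum*, *Osr1*, *Col3a1*, *Dcn* and *Ncs1* passed the rule under every alternative that compared them, and all 36 higher genes kept their sign. The alternatives used the same cells or parts of them, in which the 36 were chosen. The cause of these changes was not tested, apart from fewer genes or cells where these were left out. In 33.1% of zeugopod values with 1 to 4 reads the normalized value equals that of 0 reads, so low counts are not resolved.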

Other observations

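Genes below the filter were looked at by share of cells alone, with genes chosen after their values were seen. Of 5612 such genes, 84 were found in a share of *Shox2*-positive cells at least 15 percentage points above that of negative cells, and 41 at least 15 points below. The widest gap in either direction was that of *Ntrk2*, encoding a neurotrophin receptor, which was found in 2 of 73 positive and 18 of 50 negative cells, with 2 of 31 against 10 of 27 in NXT0142 and 0 of 42 against 8 of 23 in NXT0143. *Banp* was found in 7 and 17 cells and *Pdlim5* in 5 and 15. *Wnt11*, encoding a secreted Wnt ligand, reached 5 reads in 18 of 73 positive cells, 1 of 50 negative cells and 1 of 76 autopod cells. *Sostdc1*, encoding a secreted antagonist of BMP and Wnt signalling, was found in 15 positive and 0 negative cells, the latter allowing a share of up to 7.11%. *Twist2*, a helix-loop-helix factor of mesenchyme, was found in 15 and 2 cells. *Tbx3os1*, a transcript beside *Tbx3* on the opposite strand, was found in 16 and 1 cells, and without strand its reads cannot be told apart from those of *Tbx3* where they overlap. *Emx2*, a homeobox gene of the proximal limb that did not reach the 15 points, was found in 10 positive, 0 negative and 0 autopod cells.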
